A study of Drosophila melanogaster with 21 samples.

Results

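Dopamine, octopamine and serotonin are made and handled in the fly head by a small set of enzymes and transporters, and 10 of their genes (ple, Ddc, Hn, Vmat, DAT, SerT, Tbh, Tdc2, e and t) are described here across 21 single heads. The genes were chosen by name, were matched by their current symbols, and are 10 of 17559 genes in the deposited table. The study asked which RNAs change when Drosophila learn to link an odor with sucrose. Each sample is the head of 1 female fly, sequenced as 1 library. The naive group (5 heads) was neither starved nor trained, and the starved naive group (5 heads) was starved but not trained. The other flies were starved, trained with sucrose and collected 1 h (6 heads) or 4 h (5 heads) after training. These are called the naive, starved, 1 h and 4 h heads. All flies were kept at 25 °C, and the labels used here give no strain or age. Training, the sucrose taken during it and the time since starvation began cannot be told apart in the 1 h and 4 h heads.

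In flies, tyrosine is turned into L-DOPA by tyrosine hydroxylase (ple), and aromatic amino acid decarboxylase (Ddc) turns L-DOPA into dopamine and 5-hydroxytryptophan into serotonin. Tyrosine is also the start of octopamine, through tyrosine decarboxylase (Tdc2 in neurons) and tyramine beta-hydroxylase (Tbh). The amines are packed into vesicles by Vmat, taken up again by DAT or SerT, and joined to beta-alanine by the enzyme encoded by e (ebony), a reaction undone by the hydrolase encoded by t (tan). Dopamine and octopamine neurons carry reward signals in fly appetitive learning. In the cuticle and the eye the same enzymes serve pigment formation and the recycling of histamine.

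Of the 10 genes, ple alone changed by the test used. It was lower at 1 h and 4 h than in naive heads, in comparisons where 8.98% (1 h) and 3.40% (4 h) of all tested genes were called. Its mean level was 42.4 ± 9.46 RPKM (reads per kilobase of exon, scaled to the size of the library; SD, n = 5) in naive heads and 16.6 ± 3.45 RPKM (SD, n = 5) at 4 h. The untrained starved heads had a mean of 27.1 ± 8.87 RPKM (SD, n = 5), and ple was not called between them and any other group. The 1 h call was lost in some alternative fits. Hn and e had lower means at 4 h than in any other group, but neither passed the threshold in any comparison. Vmat, DAT, SerT, Tbh, Tdc2, Ddc and t were not called in any of the 6 comparisons. Group means of log2(RPKM + 1) were tested with limma for 10501 genes at once, and a gene is called here when its Benjamini-Hochberg adjusted p is below 0.05. Fold changes on this scale understate the change of low genes. Each head is a separate fly, and a lower level in a whole head can be fewer expressing cells or less RNA per cell, which cannot be told apart.

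**Figure D1:**
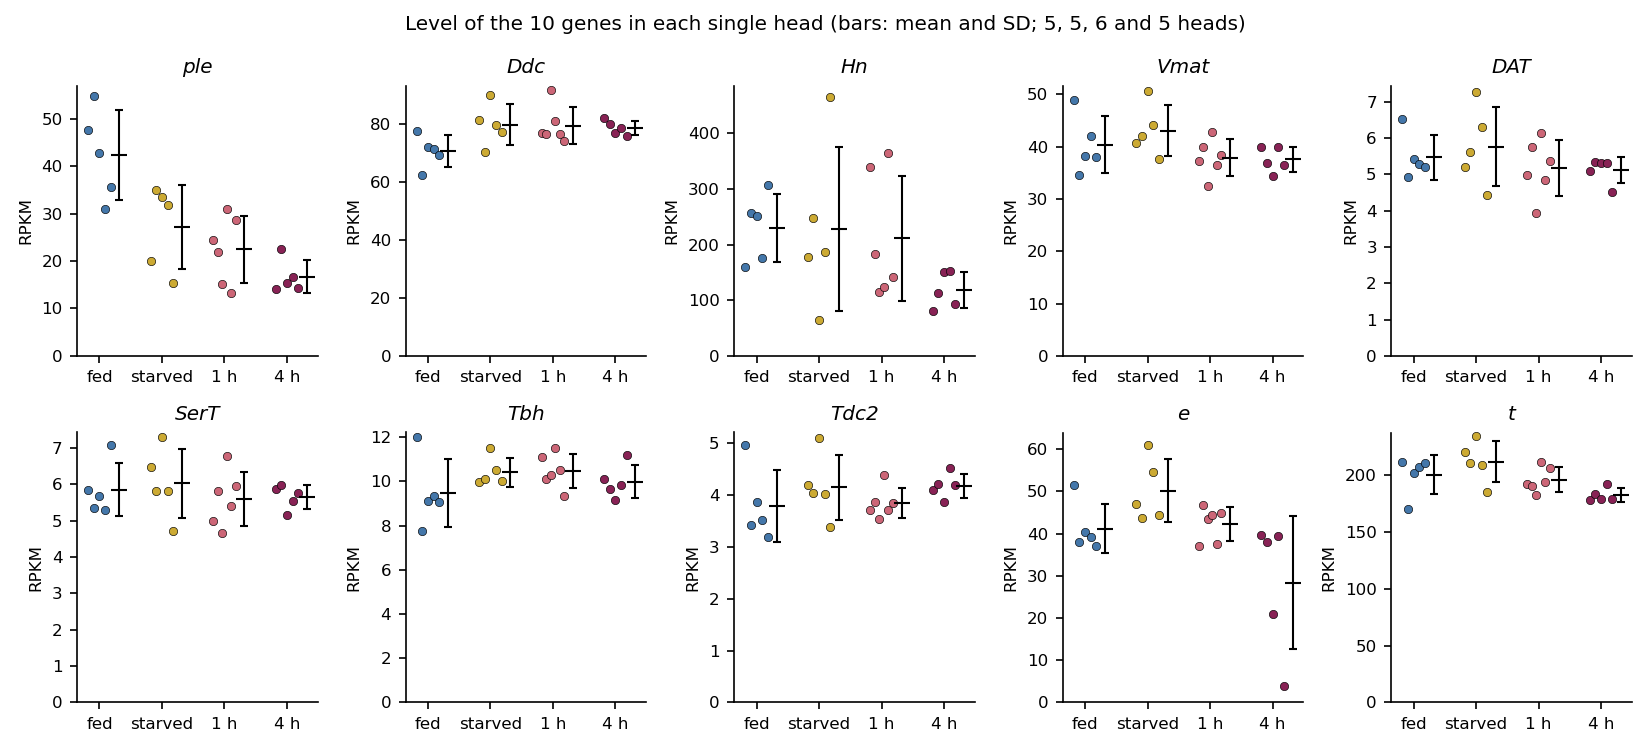
Level of each of the 10 genes in RPKM (linear axis from 0) in every single head of the naive (fed), starved, 1 h and 4 h groups, with the mean and SD beside the points (5, 5, 6 and 5 heads). The naive points of ple lie above all 4 h points and, by a very small gap near 31.0 RPKM, above all 1 h points. In e a 4 h head stands at 4.00 RPKM.

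The libraries held 36076678 to 67918703 reads on genes, so even Tdc2, the lowest of the 10 genes, had 257 to 662 reads in each head. The 10 most abundant genes took 15.5% to 19.4% of reads in naive heads and 10.5% to 13.5% in the other heads. Naive replicate 2 held 3.13% of reads on small structural RNAs, against at most 0.0345% elsewhere. The labelled tissue was checked by markers of its cell types, none of which was at 0 in any head. The summed level of 7 neuronal markers was 582 to 875 RPKM and that of 7 photoreceptor markers 15305 to 24958 RPKM over all heads. The median log2 difference of all tested genes was within 0.014 of 0 in every comparison.

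The question of each comparison with naive heads is what starvation, or starvation with training, leaves in the head. For starved against naive heads, 0 of the 10 genes were called (1.51% of all tested genes were), with 2 at an unadjusted p below 0.05 in limma. Against naive heads, 1 of 10 was called lower and 0 higher at 1 h, where 8.98% of all tested genes were called, 3.85% lower and 5.13% higher. At 4 h it was again 1 of 10 lower and 0 higher, where 3.40% of tested genes were called, 1.70% lower and 1.70% higher. Both calls were ple. The median log2 difference of the 10 genes was 0.09 for starved, -0.04 for 1 h and -0.09 for 4 h against naive heads. The 3 comparisons share the same naive heads.

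The question of each comparison with starved heads is what differs after training, the sucrose taken and the further time, which cannot be told apart. None of the 10 genes was called: 0 at 1 h (0.552% of all tested genes were called) and 0 at 4 h (6.37%). At an unadjusted p below 0.05 in limma there were 0 of 10 at 1 h and 3 of 10 at 4 h. The log2 difference was below 0 for 9 of 10 genes at both times, with a median of -0.10 at 1 h and -0.16 at 4 h. Both comparisons use the same starved heads. Of all tested genes, 48.5% had a difference above 0 at 1 h and 50.5% at 4 h. The 7 neuronal markers went the same way as the 10 genes, with 7 below 0 at 1 h and 6 at 4 h. Between 4 h and 1 h, 0 of the 10 genes were called (0.0857% of all tested genes were), and 1 had an unadjusted p below 0.05.

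**Figure D2:**
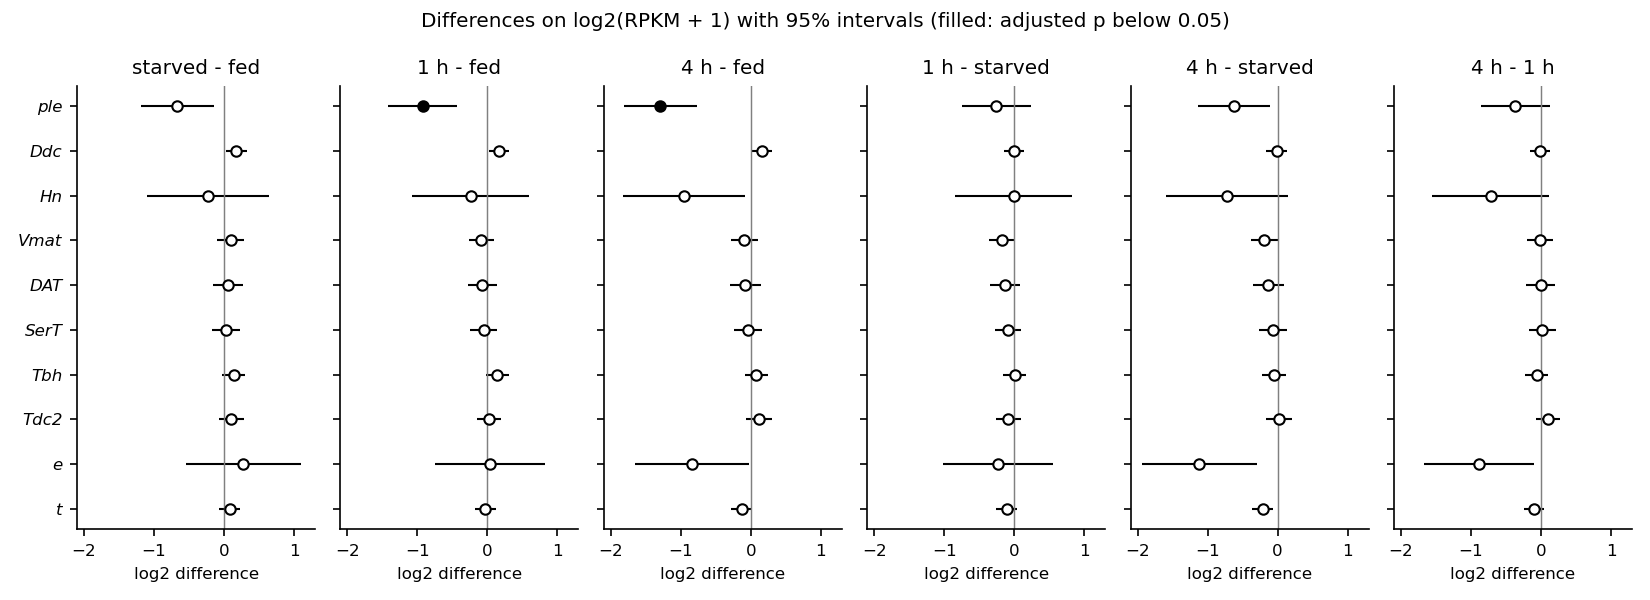
Difference of each of the 10 genes on log2(RPKM + 1) for the 6 comparisons, with 95% intervals from limma over 21 heads (filled points have an adjusted p below 0.05). The 2 filled points are ple at 1 h and at 4 h against naive heads, and the intervals of Hn and e are wider than those of the other genes.

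The gene ple encodes tyrosine hydroxylase, the rate-limiting enzyme of dopamine synthesis, and lies on chromosome 3L from 6713356 to 6719525 on the minus strand (BDGP6.54, dm6 coordinates). In naive heads its level was 47.7, 54.8, 42.8, 31.0 and 35.6 RPKM in replicates 1, 2, 3, 5 and 6. The starved heads had 19.9, 34.9, 33.5, 31.9 and 15.4 RPKM in replicates 1 to 5. Among starved heads, replicates 1 and 5 were thus low and the other 3 lay at the lower end of the naive range. At 1 h the lowest level was 13.3, the median 23.2 and the highest 31.0 RPKM. In 4 h heads ple was at 14.2, 22.6, 15.3, 16.7 and 14.4 RPKM in replicates 1, 3, 4, 5 and 6. Every 1 h and every 4 h head was below every naive head, as was so of 1.75% and 4.76% of all tested genes. At 1 h the gap was very small, since the highest 1 h head and the lowest naive head both round to 31.0 RPKM.

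The mean of ple was 47.1% lower at 1 h than in naive heads (log2 difference -0.92, SE 0.24, limma adjusted p = 0.0245). At 4 h it was 60.8% lower than in naive heads (log2 difference -1.29, SE 0.25, limma adjusted p = 0.0123). Starved heads had a mean 36.1% below naive heads, with overlapping levels and a limma adjusted p of 0.159. The 4 h mean was 38.6% below the starved mean (log2 difference -0.63, SE 0.25), with an adjusted p of 0.139 in limma. For 1 h against starved heads the log2 difference was -0.26 (95% interval -0.75 to 0.24), and for 4 h against 1 h it was -0.37 (-0.86 to 0.13). The order of the group means was therefore naive, starved, 1 h and 4 h, with differences between neighbours in that order that did not pass the threshold. Only the comparisons of 1 h and 4 h with naive heads passed.

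The 4 h call of ple held without any single head, with log2 differences of -1.40 to -1.19 and limma adjusted p of 0.00743 to 0.0438. The 1 h call was lost without naive replicate 2 (limma adjusted p = 0.0702), without naive replicate 3 (0.0539), without 1 h replicate 3 (0.0545) and without 1 h replicate 5 (0.064). It was also lost when every head was rescaled to the same total RPKM (log2 difference -0.62, limma adjusted p = 0.0632) or when only the groups compared were fitted (limma adjusted p = 0.0733). Calls over all 10501 genes were 361, 401, 523 and 326 in the fits without those heads, in the same order, against 943 in the main fit. They were 2162 with the same total RPKM and 131 with only the groups compared. Without naive replicate 6, where 278 genes were called, ple kept its call.

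Some markers of other cell types differed between the same groups. The summed level of 5 glial markers was 665 to 956 RPKM in naive, 637 to 903 in starved, 456 to 739 in 1 h and 456 to 707 in 4 h heads. Of these 5 markers, 1 (Gs2, a glutamine synthetase) was called lower at 4 h against naive heads, where 1.70% of all tested genes were called lower. The means of Gs2 were 623 RPKM in naive and 390 RPKM in 4 h heads, and most of the sum is Gs2. At 4 h against naive heads 2 of the 5 had a log2 difference above 0 and 3 below, with a median of -0.03. The glial marker repo had a mean of 16.1 RPKM in naive and 17.9 RPKM in 4 h heads. The 3 hemocyte markers summed to 20.5 to 40.0 RPKM in naive heads, 18.6 to 38.3 in starved heads, 9.98 to 45.0 at 1 h and 13.2 to 17.7 at 4 h, with 1 of 3 (NimC1) called lower at 4 h against naive heads. The summed fat body markers were at 456 to 3046 RPKM in naive, 40 to 373 in starved, 47.4 to 490 in 1 h and 150 to 903 in 4 h heads. The largest naive means among them were those of apolpp (740 RPKM) and Lsp2 (732 RPKM, from 2.47 to 1891 in single heads). Of the 4 tested, 3 were called lower at 1 h and 2 at 4 h against naive heads, beside 3.85% and 1.70% of all tested genes. In starved against naive heads 1 of the 4 was called lower, where 1.51% of all tested genes were called. The summed photoreceptor markers were higher at 4 h (22729 to 24958 RPKM) than in naive heads (15305 to 20343 RPKM), with no overlap. Most of this sum is ninaE, with means of 10481 RPKM in naive and 14043 RPKM in 4 h heads. Of the 7 markers, 1 was called higher at 4 h against naive heads, where 1.70% of all tested genes were called higher. The means of trp were 427 and 435 RPKM. Over the 21 heads, after the group means were subtracted, ple had a Pearson r of 0.684 with the glial and 0.623 with the hemocyte sum. It was 0.318 with the fat body, 0.139 with the neuronal and -0.479 with the photoreceptor sum. Without the 2 heads farthest from the median of ple it was 0.706, 0.44, 0.269, 0.0436 and -0.607, in the same order. The part of these markers in the ple result was not tested. The heads share library depth and scaling, so these are descriptions.

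Ddc, which makes both dopamine and serotonin, lay between 62.4 and 91.8 RPKM in the 21 heads. Naive heads had 77.8, 62.4, 72.3, 71.6 and 69.5 RPKM and a mean of 70.7 ± 5.55 (SD, n = 5). The means were 79.9 ± 7.08 in starved (n = 5), 79.6 ± 6.40 at 1 h (n = 6) and 78.9 ± 2.45 RPKM at 4 h (n = 5; all SD). All groups overlapped, and the lowest limma adjusted p of its 6 comparisons was 0.117. The Ddc to ple ratio had a median of 1.69 in naive, 2.69 in starved, 3.33 in 1 h and 5.03 in 4 h heads. Its lowest 4 h ratio was 3.55 and its highest naive ratio 2.31.

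Hn encodes phenylalanine hydroxylase, which supplies tyrosine from phenylalanine, and lies on chromosome 3L from 7760453 to 7763166 on the plus strand. It was the most variable of the 10 genes after subtraction of group means. Its residual SD of 0.69 on the log2 scale was above that of 93.2% of all tested genes. The naive heads held 159, 256, 251, 176 and 308 RPKM. In starved heads the range was widest, with 177, 248, 65, 187 and 465 RPKM in replicates 1 to 5, so that the lowest and the highest of all 21 heads were both starved. The 1 h heads had a lowest level of 114, a median of 163 and a highest of 364 RPKM. At 4 h the levels were 81.5, 113, 151, 153 and 93.5 RPKM. All 4 h heads were below all naive heads.

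The mean of Hn was 48.5% lower at 4 h than in naive heads, with a log2 difference of -0.95 (95% interval -1.83 to -0.08) and a limma adjusted p of 0.212. Against starved heads the 4 h log2 difference was -0.72 (-1.60 to 0.15), and against 1 h heads it was -0.72 (-1.55 to 0.12). Starved and 1 h heads differed from naive heads by -0.23 (-1.10 to 0.64) and -0.24 (-1.07 to 0.60) on the log2 scale. The starved difference turned to 0.15 without starved replicate 3. Groups that do not overlap, with the later group lower, were found for 2 of the 10 genes at 4 h against naive heads (ple and Hn), beside the 4.76% of all tested genes. Reads of Hn numbered 5899 to 37713 per head, so counting error (0.664% to 0.911% of the level by group mean) was small beside the spread between heads of 26.8% to 64.8%.

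Vmat, the vesicular monoamine transporter, is common to dopamine, serotonin and octopamine neurons. Its group means were 40.4 ± 5.47 RPKM in naive (SD, n = 5), 43.1 ± 4.87 in starved (n = 5), 37.9 ± 3.54 at 1 h (n = 6) and 37.6 ± 2.36 at 4 h (n = 5). The highest head was starved replicate 3 with 50.7 RPKM and the lowest 1 h replicate 3 with 32.4 RPKM. All groups overlapped. Of the 8134 exonic bases of Vmat, 2129 are shared with CG13330 on the other strand, which had 30.0 to 48.3 RPKM. Since the libraries were not stranded, the reads in the shared bases cannot be assigned to either gene.

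The plasma membrane transporters of dopamine (DAT) and serotonin (SerT) were low and steady. DAT had a mean of 5.47 ± 0.614 RPKM in naive, 5.76 ± 1.07 in starved, 5.16 ± 0.776 at 1 h and 5.11 ± 0.353 at 4 h (SD, n = 5, 5, 6 and 5). The means of SerT were 5.85 ± 0.727, 6.02 ± 0.948, 5.59 ± 0.758 and 5.66 ± 0.325 RPKM in the same order of groups. Neither passed in any comparison, and the lowest limma adjusted p was 0.498 for DAT and 0.70 for SerT. The ratio of Vmat to DAT had group medians of 7.31 to 7.50, with single heads from 6.48 to 8.5.

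In the octopamine branch, Tbh makes octopamine from tyramine and Tdc2 makes tyramine from tyrosine in neurons. Tbh was at 9.46 ± 1.54 RPKM in naive, 10.4 ± 0.648 in starved, 10.5 ± 0.744 at 1 h and 9.99 ± 0.745 RPKM at 4 h (SD, n = 5, 5, 6 and 5). Tdc2 had 3.8 ± 0.696, 4.15 ± 0.621, 3.84 ± 0.291 and 4.18 ± 0.238 RPKM in the same order. Naive replicate 1 was the highest naive head for both, with 12.0 RPKM of Tbh and 4.96 RPKM of Tdc2. The groups overlapped for both genes in all 6 comparisons, and the lowest limma adjusted p was 0.233 for Tbh and 0.445 for Tdc2. Without naive replicate 1, Tbh was called higher at 1 h against naive heads (log2 difference 0.22, limma adjusted p = 0.0276). In that fit 1655 of 10501 genes were called, 874 of them higher, against 943 called and 539 higher with all heads.

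For Ddc, Vmat, DAT, SerT, Tbh, Tdc2 and t together, the 42 log2 differences lay between -0.21 and 0.17. Their 95% intervals reached no lower than -0.38 (Vmat) and no higher than 0.32 (Ddc). These bounds hold for the authors' scaling of the heads. After a rescaling of the heads to 1 common total RPKM, the log2 differences from naive heads reached 0.51 for Ddc (called at 4 h), 0.43 for Tbh and 0.41 for Vmat and t, where the median of all genes moved by 0.252 to 0.301.

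The gene e encodes the enzyme that joins beta-alanine to dopamine and histamine, and is expressed in glia of the adult head. It lies on chromosome 3R from 21229839 to 21237177 on the minus strand. Its naive levels were 51.4, 38.1, 40.4, 39.1 and 37.0 RPKM. Starved heads were at 47.1, 43.8, 61.1, 54.5 and 44.5 RPKM, and 1 h heads at 37.1 to 46.7 RPKM with a median of 43.9. At 4 h the levels were 39.7, 37.9, 20.9, 39.5 and 4.00 RPKM in replicates 1, 3, 4, 5 and 6. Of these, 3 heads lay within the naive range, replicate 4 was lower and replicate 6 lay far below every other head, with 782 reads of e. All 4 h heads were below all starved heads.

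The log2 difference of e at 4 h against starved heads was -1.12 (95% interval -1.94 to -0.30, limma adjusted p = 0.097). Leaving out 4 h replicate 6 brought it to -0.56, and against naive heads the 4 h difference went from -0.84 to -0.28 without that head. Groups that do not overlap, with the later group lower, were found for 1 of 10 genes at 4 h against starved heads (e), beside 5.10% of all tested genes. At 1 h against naive heads it was also 1 of 10 (ple), beside 1.75% of tested genes. The residual SD of e was 0.65 on the log2 scale, above that of 92.4% of tested genes.

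The genes most like a given gene were taken as those tested with the highest Pearson r over 21 heads after subtraction of the group means. For e they were CG10062 (r = 0.958) and Balat, a beta-alanine transporter (r = 0.944). Since they were chosen over the same heads, low values in the heads where e is low follow from the choice and are a description. In 4 h replicate 6 CG10062 had 1.5 RPKM and Balat 2.66 RPKM, and in replicate 4 they had 3.88 and 8.52 RPKM. Without the 2 heads farthest from the median of e, the r was 0.881 for CG10062 and 0.833 for Balat. The glial marker Gs2 was at 263 RPKM in 4 h replicate 6, its lowest level, against 370 to 451 in the other 4 h heads, while repo was at 15.2 RPKM there and at 17.0 to 20.1 in the other 4 h heads. The summed glial markers of 4 h replicate 6 were 456 RPKM, against 595 to 707 in the other 4 h heads, and their part in the low e was not tested. Almost all of Balat (1918 of 1947 exonic bases) is shared with asRNA:CR43469, from which its reads cannot be told apart.

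**Figure D3:**
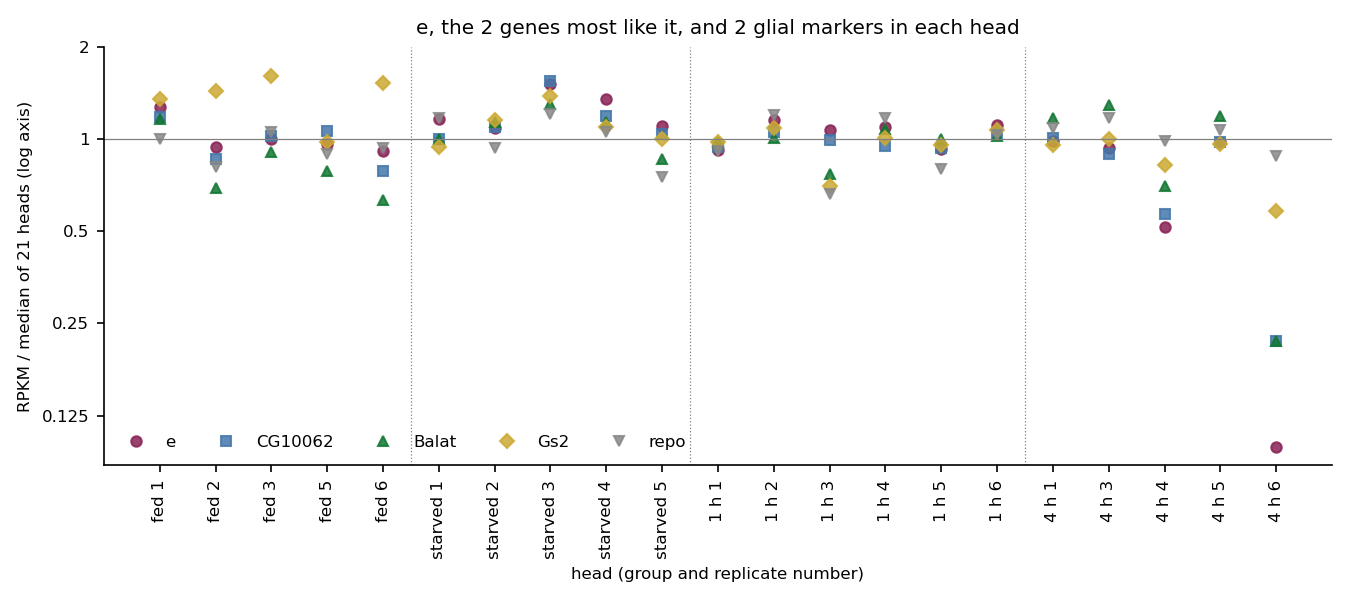
Level of e, of CG10062 and Balat, and of the glial markers Gs2 and repo in each of the 21 heads, divided by the median of that gene over the 21 heads (log axis). In 4 h replicate 6 e stands at 4.00 RPKM, CG10062 at 1.5 RPKM and Balat at 2.66 RPKM, while repo is at 15.2 RPKM.

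The gene t encodes the hydrolase that frees dopamine and histamine again, and is expressed in photoreceptors. It was among the most even of the 10 genes, with a residual SD of 0.10 on the log2 scale. Naive heads had 211, 170, 202, 207 and 210 RPKM, and starved heads 220, 210, 234, 209 and 185 RPKM. At 1 h t ranged from 182 to 211 RPKM with a median of 193, and at 4 h it was at 178, 183, 179, 192 and 179 RPKM. Of the 5 heads at 4 h, 4 were below all starved heads, and the groups overlapped. The 4 h log2 difference from starved heads was -0.21 (95% interval -0.36 to -0.06, limma adjusted p = 0.0887). It passed the threshold without naive replicate 2 (limma adjusted p = 0.0495), where 812 of 10501 genes were called against 669 with all heads. The photoreceptor markers summed to 22729 to 24958 RPKM at 4 h and to 15929 to 21210 in starved heads. Of these 7 markers, 2 (ninaE and Arr1) were called higher and 0 lower, where 6.37% of all tested genes were called in either direction. The median log2 difference of the 7 was 0.03. The e to t ratio had group medians of 0.20 to 0.24, and its lowest value was 0.0223 in a 4 h head.

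By mean level per exon length, Hn and t led in every group, followed by Ddc. In naive heads the order was Hn (230 RPKM), t (200), Ddc (70.7), ple (42.4), e (41.2), Vmat (40.4), Tbh (9.46), SerT (5.85), DAT (5.47) and Tdc2 (3.8). The levels of Hn and t overlapped in naive, starved and 1 h heads, and at 4 h all t levels were above all Hn levels, and those of Hn reached down to those of Ddc. Ddc lay above each gene that follows it in every head of each group. In naive heads ple, e and Vmat overlapped, while in the other 3 groups all ple levels were below all Vmat levels. SerT and DAT overlapped in all 4 groups. DAT was above Tdc2 in each head.

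Some of the 10 genes varied together from head to head. After subtraction of the group means, Vmat and DAT had a Pearson r of 0.861 over the 21 heads, Vmat and Tdc2 of 0.842, and DAT and Tdc2 of 0.766. For ple the highest r with another of the 10 genes was 0.675, with DAT. Hn had an r below 0 with each of the other 9 genes, down to -0.624 with Tdc2. Without the 2 heads farthest from the median of Hn, its r was weaker, at -0.359 with Tdc2, -0.31 with Vmat and -0.278 with Tbh. It was then -0.156 with SerT, -0.133 with t, -0.0837 with DAT and -0.0317 with e. Without the 2 heads farthest for Ddc or for ple, the r of Hn was -0.389 with Ddc and -0.0175 with ple. That of Vmat and DAT was 0.802 without the 2 heads farthest for Vmat. The summed neuronal markers had an r of 0.872 with Vmat, 0.839 with Tbh and 0.756 with Tdc2. Without the 2 heads farthest for each gene it was 0.776, 0.619 and 0.5. With the summed fat body markers the r was -0.74 for Ddc and 0.439 for Hn, and -0.578 and 0.34 without the 2 heads farthest for each gene. All of these points share libraries and scaling, and the correlations are descriptions.

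**Figure D4:**
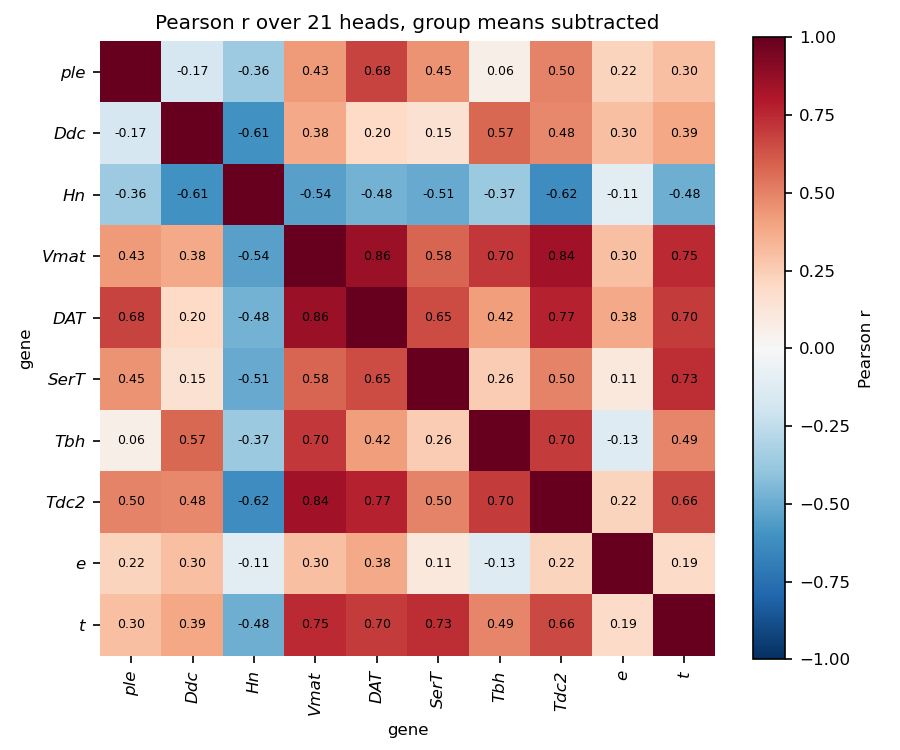
Pearson r between each pair of the 10 genes over 21 heads on log2(RPKM + 1), after subtraction of the group means (colour scale from -1 to 1). The pair Vmat and DAT has the highest r (0.861), and the row of Hn is negative throughout.

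The genes most like each of the others were found by the same rule over the 21 heads. For ple they were drd (r = 0.874) and Vha100-2 (r = 0.872), a subunit of the vacuolar proton pump. Hn was closest to Nt5b (0.958) and CG31445 (0.947), and Vmat to CG34370 (0.973) and slgA (0.965), the proline dehydrogenase gene. DAT was closest to CG10348 and goe (both 0.932), and SerT to asRNA:CR46105 (0.866) and Srrm1 (0.851). For Ddc the genes were Klp68D (0.922) and Lrrk (0.903), for Tbh dpr12 (0.92) and CG8389 (0.913), and for Tdc2 wake (0.925) and ssp6 (0.92). For t they were Fcp1 (0.908) and a gene with no symbol in the table used (0.858).

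Of 7 other genes of amine synthesis, its regulation and conjugation, 0 were called in each of the 6 comparisons. Trhn, the neuronal tryptophan hydroxylase that starts serotonin synthesis, had a mean of 7.02 RPKM in naive, 6.76 in starved, 7.98 at 1 h and 8 RPKM at 4 h. Its lowest limma adjusted p was 0.121, for 4 h against starved heads. Of the 2183 exonic bases of Trhn, 89 are shared with CG13912 on the other strand, which had 1.94 to 84.8 RPKM. Reads in these shared bases cannot be assigned to either gene. Tdc1, the non-neuronal tyrosine decarboxylase, had 9.47, 5.30, 7.32 and 9.07 RPKM in the same order. Its starved heads (3.97 to 7.83 RPKM) overlapped the naive heads (6.95 to 12.1 RPKM), with a limma adjusted p of 0.152. It was also the gene of this list with the largest 4 h difference from starved heads (limma adjusted p = 0.21). Of the 2281 exonic bases of Tdc1, 246 are shared with Rpp25 on the other strand, which had 13.2 to 30.8 RPKM. Reads there cannot be assigned to either gene. Hdc, the histidine decarboxylase that makes histamine, had 18.6 RPKM in naive and 22.7, 21.2 and 21.3 RPKM in starved, 1 h and 4 h heads (lowest limma adjusted p = 0.153).

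The cofactor tetrahydrobiopterin is needed by ple, Hn and Trhn. Of 6 genes of its synthesis and recycling, 1 was called lower in starved against naive heads, where 1.51% of all tested genes were called. At both 1 h and 4 h against starved heads 1 of 6 was called higher, where 0.552% and 6.37% of tested genes were called. In each case the gene was CG12116, which is related to sepiapterin reductase. Its mean was 266 RPKM in naive, 47.2 in starved, 255 at 1 h and 346 RPKM at 4 h (4 h against starved heads, log2 difference 3.51, SE 0.57, limma adjusted p = 0.00229). At 1 h against naive heads 1 of 6 was called lower, beside 3.85% of all tested genes. This gene was pr (purple, a synthase of the pathway). It had 50.9 RPKM in naive and 29.2 RPKM in 1 h heads (log2 difference -0.82, SE 0.19, limma adjusted p = 0.0168). The call of pr was lost without naive replicate 6 (limma adjusted p = 0.0541), where 278 of 10501 genes were called against 943. At 4 h pr had 32.3 RPKM (limma adjusted p = 0.091 against naive heads).

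Of 5 genes of histamine and beta-alanine recycling, 0 were called in any comparison. The largest 4 h difference from starved heads among them was that of Balat, with 13.2 RPKM in starved and 11.1 RPKM in 4 h heads (limma adjusted p = 0.461). Of 5 cuticle pigment genes, 2 were matched and 1 was tested, PPO2, a prophenoloxidase (28.7 RPKM in naive, 16.0 in starved, 25.5 at 1 h and 14 RPKM at 4 h), which was not called.

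**Figure D5:**
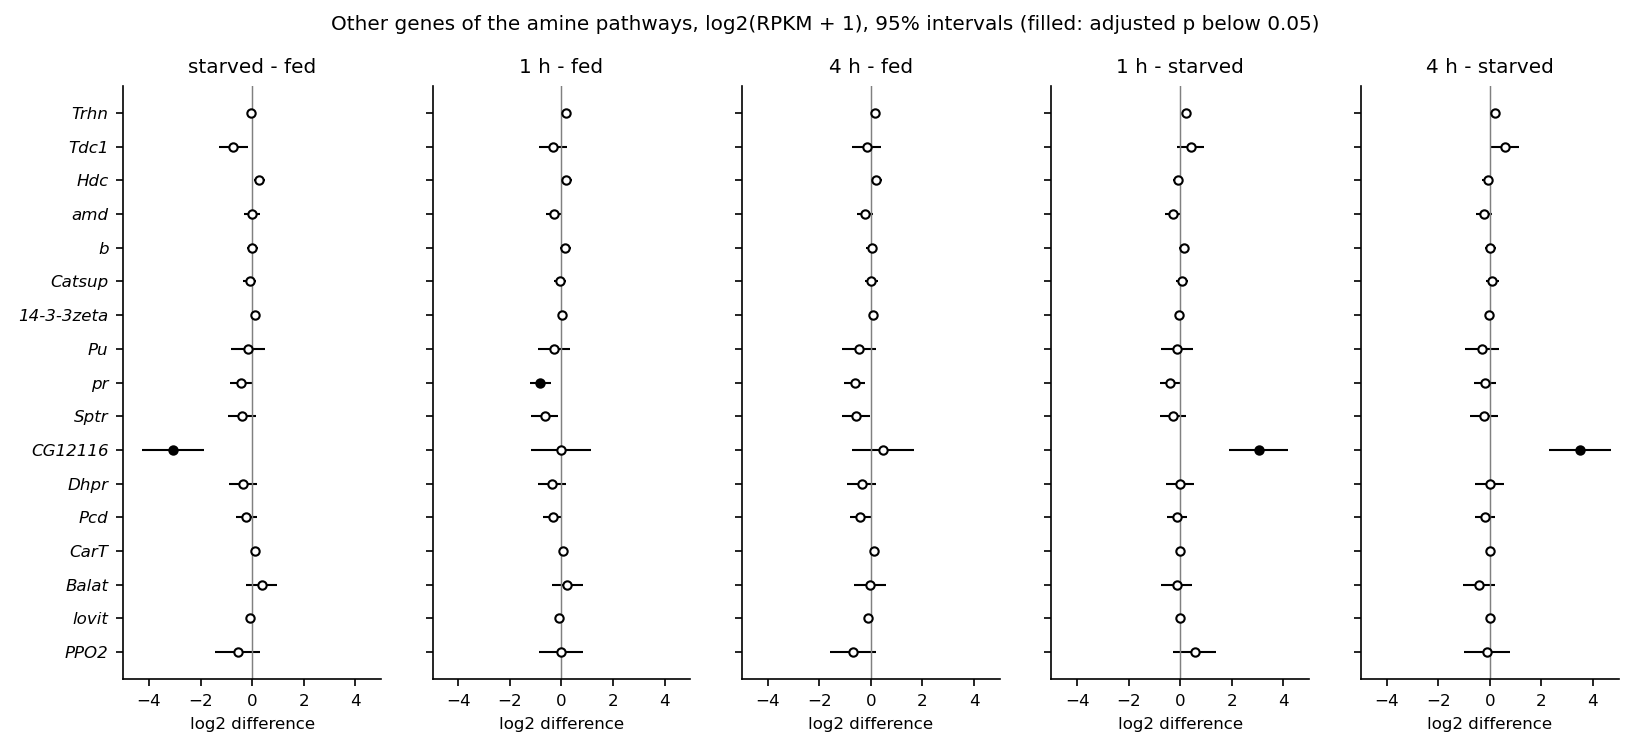
Difference on log2(RPKM + 1), with 95% intervals from limma over 21 heads, for 17 other genes of amine, cofactor, histamine and pigment pathways in 5 comparisons (filled points have an adjusted p below 0.05). CG12116 is filled in 3 panels and pr in the panel of 1 h against naive heads, with a log2 difference of -0.82.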

How the data were processed

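RNA of 21 single heads was sequenced from non-stranded polyA libraries. The authors counted uniquely mapped reads and deposited 1 RPKM value per gene and head. The submitters' processing notes name CASAVA 1.8.2, TopHat2 2.0.13, edgeR 3.18.1 and dm6, and the study's methods name another aligner and build in a further paragraph, so which settings made the table was not settled. Each deposited RPKM value corresponds to a whole number of reads (tolerance 0.01) in 100% of the 17212 genes above 0, and 16496 of the gene lengths recovered in this way equal summed exons in BDGP6.54. The values already contain the authors' scaling between heads, since the implied library size was 0.812 to 1.13 of the reads that fell on genes. No deposited column was left unused.

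Groups were taken from the labels. One limma fit (version 3.58.1, R 4.3.3; lmFit, then eBayes with a trend) on log2(RPKM + 1) held all 21 heads and a mean per group. The 10501 genes with at least 1 RPKM in at least 5 heads were tested, all 10 described genes among them, with Benjamini-Hochberg adjustment over all genes tested and a threshold of 0.05. The fit was tested on simulated data. Heads of the same group differed by a chi-square of at least 22.2 per gene, so no library was counted more than once within a group. Heads of different groups were not compared in this way. Alternatives were the pseudocount, the filter, the scaling, the variance prior, the groups in the fit, a replicate block, limma voom on recovered reads, sample weights and leaving out each head. Those for CG12116 and pr were added after their calls were seen. The genes, lists and tests were chosen with earlier results of these data known. The text names all 10 genes, the 2 tested genes most like each, every called gene of 4 pathway lists, Trhn, Tdc1 and Hdc, and the gene of each list with the largest 4 h difference from starved heads. Listed genes whose identifiers matched no row were not analysed here.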

Additional observations from a re-analysis of the deposited data

Results flagged for a closer look

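Within groups of 5 or 6 heads, 3 of the 40 sets of values (10 genes in 4 groups) had an end head set apart from the rest by Dixon's ratio, the gap to the nearest head over the whole range. Chance flags about 1 in 20 sets. Naive replicate 1 was the highest naive head for e (ratio 0.733, 51.4 RPKM against 37.0 to 40.4 in the others). Naive replicate 2 was the lowest for t (ratio 0.788, 170 RPKM against 202 to 211). It is the head with 3.13% of reads on small structural RNAs, and their part in the value was not tested. At 4 h, replicate 6 was the lowest head for DAT (ratio 0.73, 4.51 RPKM against 5.09 to 5.33), and it is the same head in which e was at 4.00 RPKM.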

How the results depend on the processing

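The ple call at 4 h against naive heads held under all 32 alternatives, with log2 differences of -1.40 to -0.95. At 1 h against naive heads the count of called genes was 0 with the same total RPKM, 0 with only the groups compared (ple limma adjusted p = 0.0733), and 0 to 2 when 1 head was left out. At 4 h against starved heads the count was 3 with sample weights (ple, t and Vmat, where 1883 of 10501 genes were called against 669) and 0 to 1 with 1 head left out. At 4 h against naive heads it was 2 with the same total RPKM (ple and Ddc). It was 2 with only the groups compared (ple and Hn, limma adjusted p = 0.0483 for Hn), where 510 genes were called against 357. With sample weights it was 4 (ple, Ddc, Hn and t), where 2737 genes were called against 357. The causes were not tested. Hn changed sign with the same total RPKM, to 0.097 for starved and 0.068 for 1 h against naive heads, and ranged from -0.55 to 0.15 for starved against naive heads with 1 head left out. Of 17 single differences over 0.2, 530 alternatives kept direction and call, 6 lost and 5 gained the call and 3 reversed. The 43 smaller ones gained a call in 5 of 1370 alternatives and had the other sign in 65. The same total RPKM moved the median of all genes by 0.281, 0.252 and 0.301 for starved, 1 h and 4 h against naive heads, and at 4 h 3148 of 3277 calls over all genes were then higher, against 179 of 357. With the same 75th percentile it was 201 of 323. The calls of CG12116 and pr with only the groups compared had limma adjusted p of 0.133, 0.157 and 0.096. Over all genes 14, 3 and 131 were then called, against 159, 58 and 943. Without naive replicate 3, CG12116 in starved against naive heads had a limma adjusted p of 0.0566, where 28 genes were called.

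With the replicate block, the count of called genes was 0, 1 and 1 for starved, 1 h and 4 h against naive heads, and ple at 4 h had a log2 difference of -1.28. The block changed no call of the 10 genes, and CG12116 at 1 h against starved heads lost its call (limma adjusted p = 0.0641). Over all genes the block moved the count of calls at 4 h against naive heads from 357 to 87. The labels do not say what the replicate numbers stand for. Of 27 same-numbered pairs, 8 had a correlation of deviations over 0.1, and 2 of 21 heads correlated best with their own number. The median correlation was -0.0263 for same-numbered pairs and 0.00127 for the others. No pairing was seen in this measure, which cannot settle whether heads of 1 number were handled together.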
